A study of Homo sapiens with 6 samples.

Results

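The clustered protocadherins are the cell-surface genes that lie in 3 neighbouring arrays, alpha, beta and gamma, on human chromosome 5. They were taken from the count table as the protein-coding entries whose symbols start with PCDHA, PCDHB or PCDHG. This gave 53 genes of 61853 entries, of which 19855 were protein-coding: 15 alpha, 16 beta and 22 gamma genes. Total RNA was sequenced from H9, an established human embryonic stem cell line, before differentiation (day 0, 3 libraries) and after 30 days of differentiation towards neurons of the arcuate nucleus of the hypothalamus (day 30, 3 libraries). To reach day 30 the cells were treated with sonic hedgehog (SHH), its pathway agonist purmorphamine, and the TGF-beta and BMP receptor inhibitors SB431542 and LDN-193189. B-27 and the gamma-secretase inhibitor DAPT came next, a ROCK inhibitor was present at replating, and BDNF, a neurotrophin, was added last. No genotype differed between the days. All libraries came from 1 cell line, and the labels do not state whether the 3 replicates of a day were separate cultures, so each p-value reflects the spread between these libraries, which may be technical.

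Clustered protocadherins are homophilic adhesion proteins: a protein on one cell binds the same isoform on another. In neurons each alpha and gamma isoform starts at a promoter of its own, in front of a variable exon that encodes the extracellular cadherin repeats, the membrane span and part of the tail. That exon is spliced to constant exons that every member of the array shares, while beta genes have a single coding exon and no constant exons. A neuron uses a small set of these promoters, chosen in part by CTCF and cohesin, and the resulting mixture of isoforms lets branches of the same neuron recognise and avoid each other. The 5 C-type isoforms (PCDHAC1, PCDHAC2, PCDHGC3, PCDHGC4 and PCDHGC5) lie last in their arrays and are known to be less subject to this choice.

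The promoters of the members carry short conserved letters around the core CGCT, and these letters differ between the arrays, so they are shown here for members whose values follow. Windows from 250 bases before to 50 after the start were taken from RefSeq (GRCh38.p14), which held one for 47 of the 53 members and 35116 in all. PCDHA3, PCDHA13, PCDHB6, PCDHB11, PCDHGA12 and PCDHGC5 had none. The letters searched, on both strands, were GATGTCGCT for alpha, GGTGGCGCT for beta, and GTCGCTGT and GCCGCTGT for gamma. They were chosen after these windows had been read, and the alpha and the first gamma motif share the letters GTCGCT. In each line the capitals mark the letters searched. All lie on the plus strand of chromosome 5.
PCDHA4, chr5:140806979-140807008: tggagccacatGATGTCGCTctttaccaca
PCDHA6, chr5:140827897-140827926: tggagccgcatGATGTCGCTgtctaccatg
PCDHA10, chr5:140855841-140855870: taaagccaccgGATGTCGCTgtcgtccaca
PCDHA12, chr5:140875244-140875273: atcagtcacatGATGTCGCTctacactcag
PCDHB2, chr5:141094544-141094573: aagagacgcggGGTGGCGCTgcagccttag
PCDHB7, chr5:141172566-141172595: acaaaacgcaaGGTGGCGCTgctggctaaa
PCDHB10, chr5:141192299-141192328: ggaggccacacGGTGGCGCTgcaggctaaa
PCDHB14, chr5:141223263-141223292: tggagacacatGGTGGCGCTacaggataag
PCDHGA4, chr5:141354963-141354991: agactctgggtGTCGCTGTtcaccaatca
PCDHGA6, chr5:141373838-141373866: ggactctaagcGTCGCTGTtgaccaacct
PCDHGA7, chr5:141382652-141382680: ggactcacagcGCCGCTGTtcaccaacca
PCDHGB4, chr5:141387620-141387648: tgactctgggcGCCGCTGTtggccaaagt
PCDHGB6, chr5:141407927-141407955: agcctctgggcGCCGCTGTcggccagtgc
PCDHGA10, chr5:141412934-141412962: ggactctgagcGCCGCTGTtcacctacta
PCDHGC4, chr5:141484955-141484983: tgagcccgggaGCCGCTGTctgccaatcg

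The beta letters stood in 13 of 14 beta windows, all but PCDHB1, and in 0.501% of all windows. The alpha letters stood in 9 of 13 alpha windows and in 0.105% of all windows. In the gamma array GTCGCTGT stood in 6 of 20 windows (0.652% of all windows) and GCCGCTGT in 11 (1.63%). GTCGCTGT was also in the windows of 5 alpha members. The core CGCT alone stood in 70.0% of all windows and so marks no set. The median distance of the letters before the start was 53 bases in alpha, 66 in beta, and 45 and 67 for the gamma pair of motifs.

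Levels are given in CPM, a gene's counts brought to a common library size with TMM factors (trimmed mean of M-values). The libraries held between 5013643 and 12924842 counts, and their log2 CPM correlated with r of 0.979 to 0.983 within day 0, 0.97 to 0.985 within day 30 and 0.594 to 0.614 between the days (across genes, which are not independent replicates). The summed CPM of 6 pluripotency markers went from 3870 to 4520 on day 0 to 9.69 to 12.4 on day 30, and all 12 pan-neuronal markers were higher on day 30. Of 10 arcuate markers 7 were higher, among them POMC and NKX2-1, while RAX, AGRP and NPY were under 1 CPM on day 30. The third day 30 library stood apart. The summed CPM of 7 mesenchymal markers ranged from 224 to 334 on day 0 and from 172 to 4370 on day 30, with COL1A1 at 82.4, 244 and 1710 CPM in the 3 day 30 libraries. No member's call in the deposited counts was lost without that library, and values without it are given for several members. Markers of proliferating neural progenitors summed to 1410 to 1610 CPM on day 0 and 357 to 387 CPM on day 30. Most of the day 30 sum was NES, at 347, 351 and 308 CPM. SOX1 went from 0.0817 ± 0.141 to 16.4 ± 2.74 CPM, MKI67, TOP2A and NES were lower, and HES5 and PAX6 were under 1 CPM on day 30. Astroglia markers summed to 35.0 to 155 CPM on day 30, and oligodendroglia markers to 25.7 to 41.3, both below day 0. Choroid plexus markers reached 12.2 to 13.7 CPM on day 30, serotonergic markers 3.54 to 5.08 with FEV at 0, and endothelial markers 3.07 to 5.82. The part of these cell types in the results was not tested.

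All 3 arrays were at a higher level on day 30. Summed over all 53 members, the clustered protocadherins took 233 ± 8.07 CPM on day 0 and 1230 ± 74.1 CPM on day 30 (SD, n = 3), a ratio of 5.29. The beta array was the lowest of the 3 on day 0, at 37.9, 40.1 and 37.2 CPM, and stood at 342, 334 and 380 CPM on day 30, a ratio of 9.16. The gamma array went from 85.7, 78.7 and 69.8 CPM to 411, 402 and 482 CPM, a ratio of 5.53, and the alpha array from 100, 121 and 128 CPM to 458, 434 and 453 CPM, a ratio of 3.85. In none of the arrays did the days overlap. The third day 30 library, with the high mesenchymal markers, had the highest beta and gamma sums of its day but not the highest alpha sum. In bulk RNA, fewer cells that express a gene and less RNA per cell cannot be told apart, and a CPM value depends on all other RNAs in its library.

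Member by member, edgeR's quasi-likelihood test across 18040 genes called 52 of 52 tested members higher on day 30 and 0 lower at a Benjamini-Hochberg adjusted p under 0.05. Over all genes tested, 39.8% were called higher and 36.8% lower. Each of the 52 rose by 2-fold or more, as did 29.7% of all genes, and the largest adjusted p was 0.000875. The median log2 change was 3.65 in beta (1.78 to 5.71), 2.21 in alpha (1.05 to 2.71) and 2.14 in gamma (1.25 to 4.28), beside 0.08 over all genes. PCDHB1 was not tested, and its lowest day 30 library was at 0.376 CPM, beside 0.367 CPM in its highest day 0 library. For all 52 tested members every day 30 library lay above every day 0 library, against 41.3% of genes tested. In alpha and gamma these values include shared reads, described below. A direction was fixed for some of these: 10 tested members (8 beta and 2 gamma: PCDHB6, PCDHB7, PCDHB8, PCDHB9, PCDHB10, PCDHB11, PCDHB12, PCDHB14, PCDHGA2 and PCDHGA3) were under the filter of 1.21 CPM in every day 0 library and so could enter only by being high on day 30. All 52 calls also held without the third day 30 library. DESeq2 and limma-voom likewise called 52 higher and 0 lower.

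**Figure D1:**
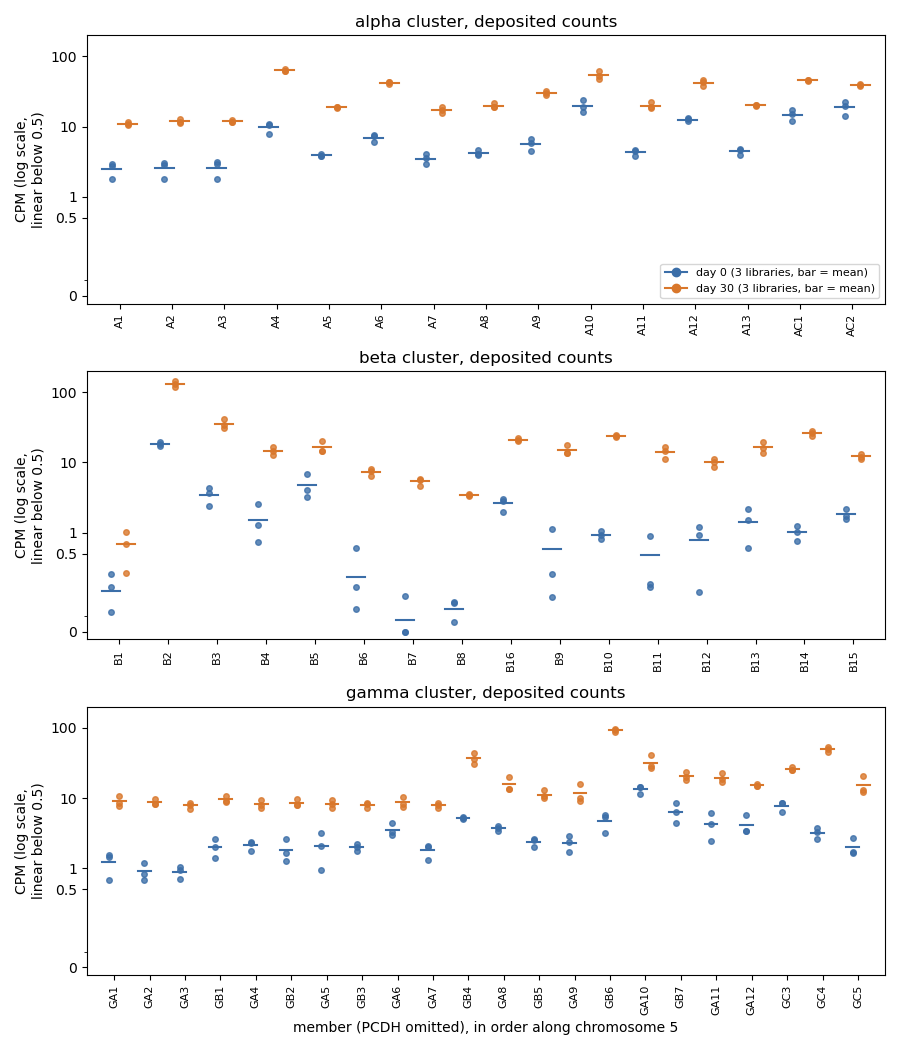
Level of each clustered protocadherin in CPM from the deposited counts (vertical axis, log scale, linear below 0.5) in order along chromosome 5, with 1 point per library and a bar for the mean of 3. In each of the 53 members the day 30 points lie above the day 0 points, and PCDHB7 and PCDHB8 start lowest.

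In the stem cells, 43, 47 and 39 members reached 1 CPM, by library, against 53, 52 and 52 in the neurons. The difference lay mostly in beta, where 8, 10 and 6 of 16 members were at 1 CPM on day 0 and 16, 15 and 15 on day 30. All 15 alpha members reached 1 CPM in every library, and 20, 22 and 18 of the 22 gamma members did so on day 0. The deposited counts of alpha and gamma members hold shared reads, however, which are described next. Without those reads, 39, 35 and 33 members reached 1 CPM on day 0 and 43, 41 and 44 on day 30. In gamma 19, 14 and 15 of 22 did so on day 0 and 13, 14 and 17 on day 30, so the days overlapped. In alpha 12, 11 and 12 of 15 did so on day 0 and 14, 12 and 12 on day 30.

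The deposited values were not whole numbers in the alpha and gamma arrays, and their fractions followed the constant exons. In each library all 22 gamma members had the same fraction (modulo 0.5 reads), as they would if reads on the exons they share had been divided evenly by 22. In the alpha array 9 to 15 of the 15 members shared a fraction. The lowest member of an array therefore bounds what each member holds of the shared reads: PCDHA1 was lowest or tied for lowest in every library, and PCDHGA3 was lowest in every library but the third of day 0, where it was 2 reads above PCDHGA1. That lowest value, times the number of members, is used here as the array's constant-exon reads, and a member's value minus the lowest as its own reads, from its variable exon. Both rest on the lowest member having no reads of its own. If it had some, every own value of that library would be too low by that number.

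The constant exons of both arrays were read more on day 30. Gamma constant-exon reads took 15.6, 23.1 and 15.2 CPM on day 0 and 173, 156 and 190 CPM on day 30. The log2 change was 3.27 ± 0.17 (SE; edgeR quasi-likelihood, adjusted p = 3.05e-08). Alpha constant-exon reads took 27.2, 40.9 and 43.7 CPM and then 174, 161 and 162 CPM, a log2 change of 2.16 ± 0.17 (adjusted p = 5.85e-07). These reads made up 18.2% to 29.4% of gamma reads on day 0 and 38.9% to 42.1% on day 30, and 27.0% to 34.2% and then 35.9% to 38.1% of alpha reads. The evenly divided part thus weighed more in the gamma counts of day 30.

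Per kilobase of exon, constant reads were closer to variable reads on day 30 than on day 0. The gamma constant exons (2.18 kb) had 1.24, 1.09 and 1.10 times the CPM per kb of the summed variable exons on day 30, and 0.357, 0.674 and 0.46 times on day 0. For alpha (2.87 kb) the ratio went from 0.54, 0.77 and 0.811 in the stem cells to 0.953, 0.896 and 0.897 in the neurons. The days did not overlap in either array. On day 0, then, the variable exons held more reads per kb than the constant exons to which they are spliced.

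**Figure D2:**
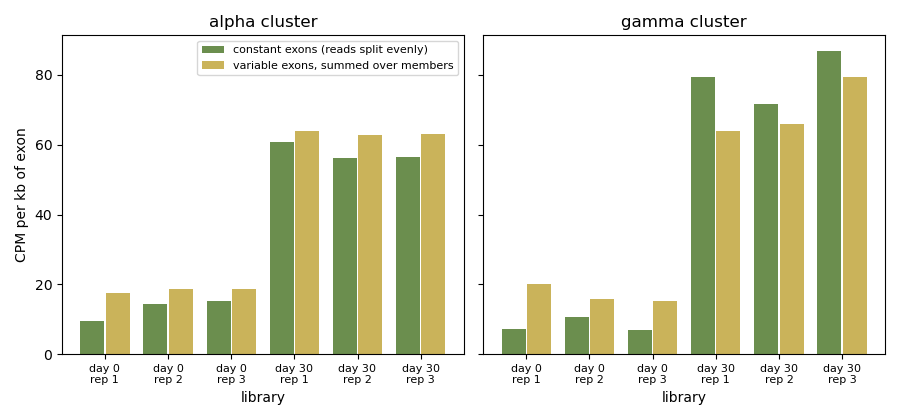
CPM per kb of exon (vertical axis) in the constant exons and in the variable exons summed over members, for each library of the alpha and gamma arrays. In the gamma array the constant-exon bar is the taller on day 30 (ratios of 1.09 to 1.24) and the shorter on day 0 (0.357 to 0.674).

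The beta genes have no constant exons, so nothing was subtracted from their counts. PCDHB2 led the array on both days, with 16.9, 19.4 and 18.3 CPM on day 0 and 129, 117 and 144 CPM on day 30. Its log2 change was 2.83 ± 0.13 (edgeR quasi-likelihood, adjusted p = 1e-08). It held 44.4% to 49.3% of beta reads on day 0 and 35.2% to 37.8% on day 30, so its share was lower while its level was higher. PCDHB3 was the next most counted on day 30, at 35.4 ± 5.49 CPM from 3.48 ± 1.01.

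Several beta members with large rises had few reads in the stem cells. PCDHB7 had about 2 reads over the 3 day 0 libraries (0, 0.229 and 0 CPM) and 149 over those of day 30 (5.80, 4.64 and 5.70 CPM). The ratio was 60.3, with a 95% counting interval of 16.4 to 502, which covers counting error only, and the fitted log2 change was 5.71 ± 0.61. All of its day 0 reads lay in the second library, without which the fit gave 8.56. PCDHB8, whose fitted change was the sixth in the array at 4.57 ± 0.53, went from 3 to 96 reads, a ratio of 25.9 (8.59 to 128). The day 0 counts were fractions before rounding, 1.58 in PCDHB7 and 3.33 in PCDHB8. The intervals do not cover how reads that match several genes were placed.

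PCDHB11 and PCDHB14 had the largest fitted rises after PCDHB7. PCDHB11 went from 0.888, 0.289 and 0.306 CPM to 11.2, 14.5 and 16.7 CPM (log2 4.84 ± 0.38), and PCDHB14 from 0.761, 1.23 and 1.02 CPM to 25.8, 28.1 and 23.9 CPM (log2 4.74 ± 0.22). PCDHB10 and PCDHB9 rose by a like amount, with log2 changes of 4.68 ± 0.22 and 4.59 ± 0.37. PCDHB5 had the smallest beta rise, 1.78 ± 0.28, from 3.21, 4.05 and 6.86 CPM to 14.7, 14.6 and 19.9 CPM.

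PCDHB1, the first gene of the array, had the lowest beta level on day 30. Among the 14 beta genes with a window, it was the 1 without the GGTGGCGCT letters. It had 6 reads on day 0 and 21 on day 30, under the filter, with a ratio of 2.83 (95% counting interval 1.11 to 8.57). With every member kept in the fit beside the genes that pass the filter, its log2 change was 1.44 ± 0.59 (edgeR quasi-likelihood, adjusted p = 0.0462).

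Beta genes are close in sequence, and some reads could be placed on more than 1 of them. Of the 100-base windows of each beta transcript, 25.7% in PCDHB8, 24.7% in PCDHB10 and 15.1% in PCDHB13 also occurred in another clustered protocadherin or a pseudogene of the clusters. In PCDHB2 this was 11.3%, in PCDHB9 10.3%, in PCDHB1 0%, and in the others 2.62% to 9.03%. Beta values were in part not whole numbers either: 7, 5 and 7 of 16 were whole on day 0, and 1, 4 and 6 on day 30. They would be so if reads that match more than 1 gene had been divided among those genes. The sources used here do not say how such reads were placed, so the split between close beta genes is uncertain.

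The alpha members rose together when counted by their own reads. Of 15, PCDHA1 was the lowest member and has no own value, and the other 14 were all higher on day 30 with every member kept in the fit (edgeR quasi-likelihood, adjusted p under 0.05; 39.8% of the 18040 entries of that fit were higher). PCDHA2 and PCDHA3 rest on few reads, with own counts of 2 and 28 (ratio 11.3, interval 2.86 to 98.1) and of 3 and 25 (ratio 6.74, interval 2.06 to 34.9). Without the pair, the smaller fit with the usual filter called 12 of 12 alpha members higher, of which PCDHA7 passed the filter through day 30 alone. Of all members in that fit, 9 did so, the other 8 being beta genes.

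PCDHA4, PCDHA6 and PCDHA9 had the largest alpha rises in the deposited counts. PCDHA4 went from 7.84, 10.6 and 11.0 CPM to 67.3, 62.8 and 62.3 CPM (log2 2.71 ± 0.15, adjusted p = 4.45e-08 by edgeR's quasi-likelihood test). PCDHA6 went from 7.71, 7.29 and 5.98 to 42.8, 40.3 and 43.0 CPM (2.59 ± 0.15), and PCDHA9 from 5.93, 6.63 and 4.51 to 30.4, 27.8 and 32.3 CPM (2.40 ± 0.18). By own reads alone, the changes were 2.86 ± 0.15, 2.78 ± 0.21 and 2.58 ± 0.29. The order of the 3 genes was the same by both counts.

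The alpha members that led on day 0 rose least. PCDHA10 had the most counts of the alpha array on day 0, at 16.0, 19.0 and 23.7, and had 52.1, 47.7 and 62.5 CPM on day 30 (log2 1.46 ± 0.17). PCDHA12 rose by 1.74 ± 0.14. By own reads, PCDHA10 or PCDHAC2 led each day 0 library with 19.4% to 24.7% of the array, and PCDHA4 or PCDHA10 led each day 30 library with 17.8% to 19.7%. The remaining alpha members, PCDHA5, PCDHA7, PCDHA8, PCDHA11 and PCDHA13, had own log2 changes between 2.21 and 2.60.

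The 5 C-type isoforms did not move as 1 group. Both alpha C-type genes rose less than any other alpha member except PCDHA10, whereas PCDHGC4 had the second largest rise of the gamma array. PCDHAC1 went from 12.0, 15.3 and 17.0 to 45.5, 45.2 and 46.7 CPM (log2 1.63 ± 0.15), and PCDHAC2 from 14.2, 19.8 and 22.5 to 40.8, 37.9 and 38.8 CPM (1.05 ± 0.17, adjusted p = 0.000167 by edgeR's quasi-likelihood test). By own reads PCDHAC2 changed by 0.78 ± 0.17, less than 2-fold.

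PCDHGC4, an isoform with a known role in neuronal survival, went from 3.75, 3.29 and 2.65 CPM to 50.5, 45.7 and 53.8 CPM, a log2 change of 3.92 ± 0.17 (adjusted p = 8.21e-09) and 4.10 ± 0.19 by own reads. PCDHGC3 was the highest gamma C-type gene on day 0, at 8.45, 8.50 and 6.32 CPM, and reached 24.9, 25.2 and 27.6 CPM (1.73 ± 0.16). PCDHGC5 went from 1.72, 2.71 and 1.67 to 12.9, 12.1 and 20.6 CPM (2.85 ± 0.30). Its highest value lay in the third day 30 library, the one with high mesenchymal markers, and without it the change was 2.62 (2.04 by own reads). Per kilobase of its own exon, the level of PCDHGC4 was below that of PCDHGC3 on day 0 (0.865 ± 0.202 against 2.14 ± 0.351 CPM per kb) and above it on day 30 (15.1 ± 1.19 against 5.55 ± 0.304).

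The gamma array is where deposited counts and own reads part. In the deposited counts 22 of 22 gamma members rose. By own reads, with every member kept in the fit, 12 of 22 were higher on day 30, 4 were lower and 6 did not pass (edgeR quasi-likelihood; 39.8% of entries were higher and 36.8% lower). The 4 lower members were PCDHGA4, PCDHGB3, PCDHGA6 and PCDHGA7, neighbours in the first part of the array. The 6 that did not pass were PCDHGA1, PCDHGA3, PCDHGB1, PCDHGB2, PCDHGA5 and PCDHGA9.

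PCDHGA6 had the most own reads of the 4. It had 20, 13.5 and 30 own reads in the day 0 libraries and 3, 6 and 9 in those of day 30, or 2.54, 1.95 and 3.67 CPM and then 0.307, 0.451 and 1.69 CPM. The days did not overlap, and the log2 change was −2.02 ± 0.54 (edgeR quasi-likelihood, adjusted p = 0.00526). In the deposited counts the same gene rose by 1.25 ± 0.25, from 3.25, 3.00 and 4.36 to 8.17, 7.56 and 10.3 CPM.

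PCDHGA7 had 11, 6.5 and 5 own reads on day 0 and 0, 2 and 0 on day 30, and its value on day 0 was 13.6 times that on day 30 by counting (95% interval 3.34 to 119). Its fitted log2 change was −3.53 ± 0.79 (adjusted p = 0.00193). PCDHGB3 had 12, 6.5 and 9 and then 4, 2 and 0 own reads, 5.77 times as much on day 0 (2.34 to 17.0), with a log2 change of −2.40 ± 0.62 (adjusted p = 0.00458). PCDHGA4 had 13, 8.5 and 9 and then 2, 2 and 4 own reads (−2.11 ± 0.57, adjusted p = 0.00574). In all 3 genes each day 0 library was above each day 30 library.

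These 4 falls rest on small numbers, and the PCDHGA4 call was lost without the second day 30 library (log2 −1.61, adjusted p = 0.0504). PCDHGA5, at −1.68 ± 0.72 (adjusted p = 0.0546), passed without the third day 0 library (−2.20, adjusted p = 0.00603) or without the third day 30 library (−2.11, adjusted p = 0.0405). Leaving out each library in turn gave 3 to 5 members lower and 40 to 42 higher. PCDHGA3, the usual lowest member, had deposited values of 7.87, 7.11 and 8.62 CPM on day 30, which sets the most that could be missing from its neighbours' own values. The division of gamma reads among isoforms is uncertain to that extent.

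PCDHGA2 was the 1 gamma member before PCDHGB4 that was called higher by own reads. These went from 2 over the 3 day 0 libraries to 23 over those of day 30 (ratio 9.30, 95% counting interval 2.30 to 81.4). The log2 change was 3.02 ± 0.86 (edgeR quasi-likelihood, adjusted p = 0.00781). The own reads of PCDHGB1 were 1.20 ± 0.781 CPM on day 0 and 1.73 ± 0.373 CPM on day 30, with a log2 change of 0.49 ± 0.50 that did not pass. The own level of PCDHGA1 went from 0.423 ± 0.388 to 1.15 ± 0.791 CPM, and that of PCDHGB2 from 1.03 ± 0.845 to 0.66 ± 0.518 CPM (neither passed). None of these 3 separated the days.

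**Figure D3:**
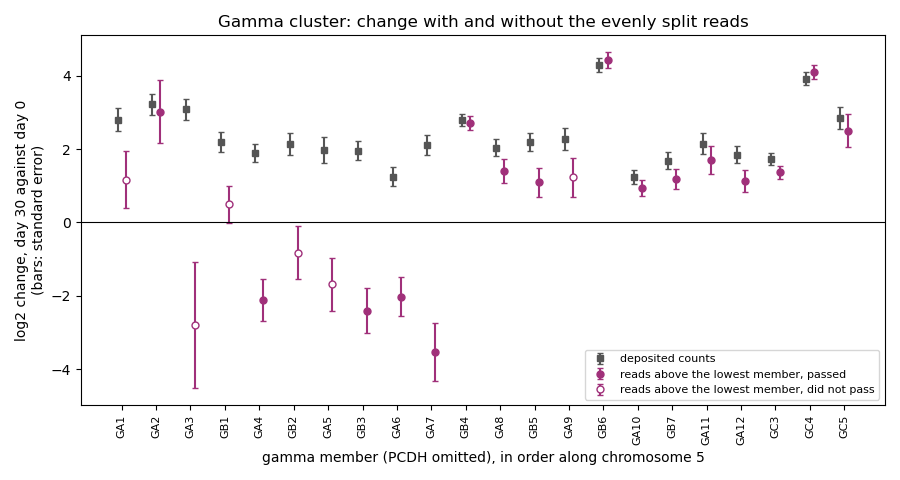
Log2 change of each gamma member between day 0 and day 30 (vertical axis, with standard errors) in order along chromosome 5, from the deposited counts (squares) and from reads above the lowest member with every member kept in the fit (circles, open where the test was not passed). All squares lie above 0, while the circles of PCDHGA4, PCDHGB3, PCDHGA6 and PCDHGA7 lie between −3.53 and −2.02 and those from PCDHGB4 on lie above 0.

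Downstream of PCDHGA7 the own reads rose. From PCDHGB4 to PCDHGA12, 8 of 9 members were higher and PCDHGA9 did not pass (1.23 ± 0.54, adjusted p = 0.0587), and all 3 C-type members were higher. PCDHGA9 had 7.33 own CPM in the third day 30 library, the one with high mesenchymal markers, and 2.15 and 2.03 in the others. It passed without the first or the second day 30 library (log2 1.51 and 1.60), and was at 0.51 without the third. PCDHGB5 passed (1.09 ± 0.39) but not without the second day 0 library (0.80), the second day 30 library (1.01) or the third (0.94).

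PCDHGB6 stood above the other gamma members on day 30. Its deposited values went from 5.79, 5.32 and 3.14 CPM to 96.9, 93.2 and 88.3 CPM, a log2 change of 4.28 ± 0.19 (edgeR quasi-likelihood, adjusted p = 9.2e-09), and its own change was 4.43 ± 0.21. It held 37.4%, 35.0% and 27.3% of the gamma own reads on day 30, and the C-type PCDHGC4 came next in each library with 15.5% to 17.9%. On day 0 the leader was PCDHGA10 in all 3 libraries, with 18.9% to 24.9%. PCDHGA10 rose by 1.25 ± 0.19 in the deposited counts, from 14.2, 11.5 and 14.3 to 28.7, 26.9 and 40.9 CPM, and by 0.94 ± 0.21 by own reads. Without the third day 30 library, its highest, these were 1.07 and 0.72.

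PCDHGB4 also rose strongly, from 5.02, 5.46 and 5.22 CPM to 31.1, 36.0 and 43.5 CPM (2.79 ± 0.17, and 2.71 ± 0.20 by own reads). It shares exon sequence with PCDHGA8, so the split of reads between the pair is uncertain. Of the other B-type genes downstream, PCDHGB6 rose more by own reads (4.43 ± 0.21). PCDHGB5 and PCDHGB7 rose less, by 1.09 ± 0.39 and 1.19 ± 0.27. The A-type genes PCDHGA8, PCDHGA11 and PCDHGA12 rose by 1.40 ± 0.32, 1.70 ± 0.37 and 1.14 ± 0.30. PCDHGA8, with 5.79, 6.43 and 11.4 own CPM on day 30, rose by 1.11 without the third library. In the deposited counts PCDHGA2 had the third largest gamma rise, from 0.836, 1.20 and 0.69 to 8.17, 8.16 and 9.75 CPM (3.22 ± 0.29). PCDHGA3 came next at 3.08 ± 0.29, though PCDHGA3 had 2 own reads on day 0 and 0 on day 30.

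Grouped by position, with a border at PCDHGB4 chosen after the values were seen, the gamma array shifted towards its downstream end. The 10 members before PCDHGB4 held 18.8%, 15.1% and 17.0% of own reads on day 0 and 1.55%, 2.20% and 3.28% on day 30. Their summed own level was 13.2, 8.39 and 9.31 CPM on day 0 and 3.69, 5.41 and 9.58 CPM on day 30, so the days overlapped in level but not in share. The third day 30 library was the highest of its day in both measures.

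The 9 members from PCDHGB4 to PCDHGA12 held 64.3% to 67.3% on day 0 and 70.6% to 72.7% on day 30, and the 3 C-type members 15.7% to 20.4% and then 25.1% to 27.2%. The shares of all 3 groups were separate between the days. Shares add up to the whole, so they are not independent of each other.

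The gamma promoter letters shown at the start overlapped with this border in part. The 6 members with GTCGCTGT (PCDHGA2, PCDHGA3, PCDHGA4, PCDHGB2, PCDHGA5 and PCDHGA6) all lie before PCDHGB4. Their summed own level was 7.62, 5.64 and 6.24 CPM on day 0 and 1.23, 2.63 and 5.45 CPM on day 30, so the third day 30 library, with the high mesenchymal markers, lay just under day 0. The day 30 mean was 3.10 CPM with that library and 1.93 without it. By member, the fit gave 1 higher, 2 lower and 3 that did not pass, with a median log2 change of −1.85. The 11 members with GCCGCTGT went from 44.0, 36.1 and 36.4 CPM to 205, 206 and 238 CPM, with 7 higher, 1 lower (PCDHGA7) and 3 that did not pass, and a median of 1.23. Of these 11, PCDHGA1, PCDHGB1 and PCDHGA7 lie before PCDHGB4, and none of the 3 was called higher. PCDHGB3, 1 of the 4 lower members, had neither motif in its window. The letters are a description of the windows only.

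**Figure D4:**
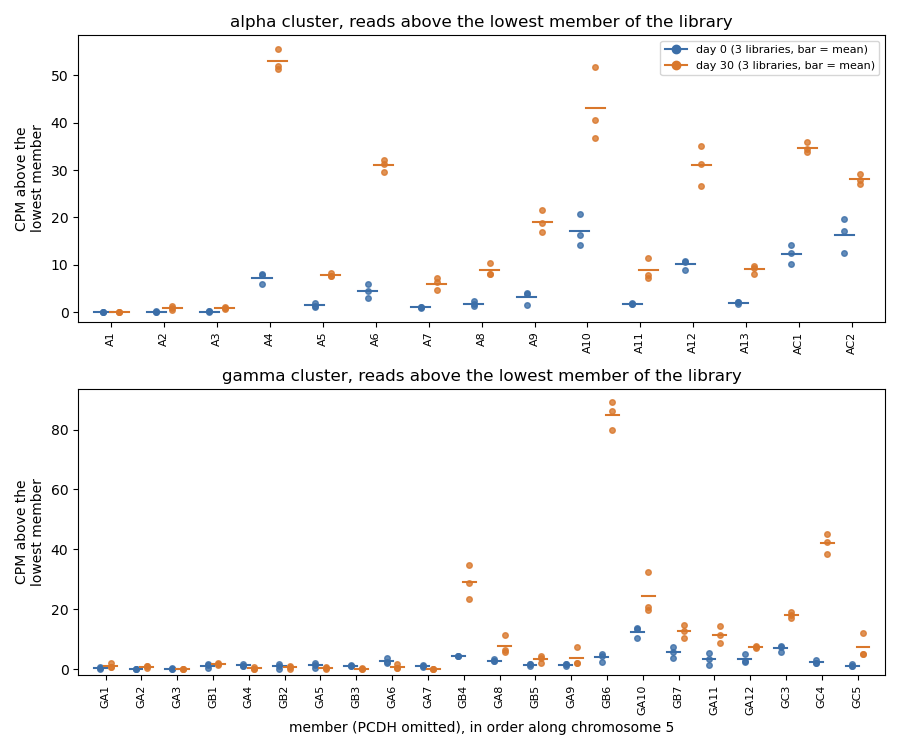
Own level of each alpha and gamma member, in CPM above the lowest member of the same library (vertical axis), with 1 point per library and a bar for the mean of 3. PCDHGB6 and PCDHGC4 stand out on day 30, and each gamma member up to PCDHGA7 stays under 4 CPM in every library.

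The evenness of use within an array moved in opposite directions in beta and gamma. It is given as the number of equally used members that would have the same Shannon entropy of own reads. In gamma this number was 15.1, 13.7 and 13.4 on day 0 and 7.53, 8.26 and 9.93 on day 30, so own reads were less evenly spread on day 30. The number leaves out the constant-exon reads, which were a larger part of gamma reads on day 30. In beta it was 6.92, 6.65 and 5.88 and then 9.29, 9.76 and 9.17. In alpha it was 9.20, 8.36 and 7.59 and then 10.0, 9.96 and 9.83. None of the 3 arrays had overlapping days, and this mixes all cells of a culture, so it says nothing of the number of isoforms in a single neuron.

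Levels of different genes can be compared only per length, here as own CPM per kb of a gene's exons outside the constant exons. On this scale the stem cells had most of PCDHAC2 (4.74 ± 1.05 CPM per kb), PCDHB2 (4.41 ± 0.313) and PCDHA12 (3.92 ± 0.384), which did not differ beyond their spread. PCDHAC1 (3.01 ± 0.487) and PCDHGA10 (2.81 ± 0.397) came next, also within their spread of each other.

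On day 30 the order per kb was led by PCDHB2, at 31.5 ± 3.18 CPM per kb. It was followed by PCDHGB6 (18.5 ± 1.04) and PCDHGC4 (15.1 ± 1.19), each separated from the one before by more than their SDs. PCDHA12 (12.0 ± 1.64) and PCDHB3 (10.6 ± 1.64) came next and did not differ beyond their spread. PCDHGB4 was at 6.14 ± 1.23 CPM per kb over 4.72 kb, part of which it shares with PCDHGA8. Divided by its unshared 2.46 kb alone, the same reads would give 11.8, so its place in the order is uncertain. PCDHA6 (9.48 ± 0.401), PCDHAC1 (8.52 ± 0.252) and PCDHAC2 (8.14 ± 0.299) were the next alpha members. PCDHA4 and PCDHA10, which led the alpha array by CPM, were at 5.02 ± 0.218 and 3.48 ± 0.623 CPM per kb, as the annotation gives them 10.57 and 12.36 kb of such exon, against 2.59 kb for PCDHA12. Which of those longer exons were in use was not tested.

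Among the genes that lie with or act on the clusters, the pseudogenes moved with the members. All 6 of 6 pseudogenes of the clusters were higher on day 30 (edgeR quasi-likelihood, adjusted p under 0.05; 39.8% of all genes were higher), with a median log2 change of 3.20. For 3 of them, PCDHB17P, PCDHB18P and PCDHB19P, every day 0 library was under the filter, so they could be tested only by being high on day 30. The largest was PCDHB19P, in the beta array, at 5.45 ± 0.49, from 0.254, 0.0477 and 0.122 CPM to 6.12, 6.00 and 6.95 CPM. Reads shared with close beta genes could be among these.

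Of 14 genes tested beside and between the clusters, 5 were higher and 3 lower, with a median of 0.25 (39.8% and 36.8% of all genes). TAF7, a subunit of the general transcription factor TFIID that lies between the beta and gamma arrays, was at 90.6 ± 3.92 CPM on day 0 and 83.2 ± 14.2 on day 30 (log2 −0.12 ± 0.13, adjusted p = 0.446). PCDH12, a non-clustered protocadherin, had the largest rise (3.03 ± 0.74). Its 5 reads on day 0 all lay in the third library, without which the change was 7.03, and as every day 0 library was under the filter it could be tested only by being high on day 30. DND1, which did not pass, was under the filter likewise. The largest fall was that of ARAP3, a GTPase-activating protein (−2.57 ± 0.14).

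Regulators of promoter choice, that is CTCF, cohesin and factors of DNA methylation and repressive chromatin, were called in both directions. Of 22 tested, 12 were lower and 7 higher, with a median of −0.38, where 36.8% of all genes were lower and 39.8% higher. CTCF was at 94.1, 102 and 99.8 CPM on day 0 and 51.9, 48.3 and 42.8 on day 30 (−1.04 ± 0.11, adjusted p = 9.22e-06 by edgeR's quasi-likelihood test), and the cohesin subunits RAD21, SMC1A and SMC3 changed by −0.65, −0.94 and −0.89. The cohesin subunit STAG1 rose by 0.98 and its counterpart STAG2 fell by 1.34 on the log2 scale.

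DNMT3B, the de novo DNA methyltransferase known to methylate clustered protocadherin promoters, had the largest fall, from 1440 ± 74.5 to 16.0 ± 4.15 CPM (−6.51 ± 0.21). DNMT3A, the other de novo enzyme, was at 151 ± 3.76 and 145 ± 9.28 CPM (−0.06 ± 0.10, adjusted p = 0.621). TET2, which oxidises methylated cytosine, had the largest rise, from 12.4 ± 2.19 to 165 ± 7.16 CPM (3.72 ± 0.14). REST, a repressor of neuronal genes, changed by −3.34 ± 0.19. SMCHD1, a silencer of the clusters, changed by −0.28 (adjusted p = 0.0409).

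Partners and signalling proteins of the clustered protocadherins had 11 of 27 genes higher, 11 lower and a median of 0.19, shares near those of all genes (39.8% higher and 36.8% lower). NLGN1, a neuroligin, had the largest rise (2.31 ± 0.12) and WASF2, a subunit of the WAVE complex that binds protocadherin tails, the largest fall (−1.95 ± 0.16). Within that complex CYFIP2 rose by 1.77 ± 0.11 while CYFIP1 changed by −1.74 ± 0.20. The kinase FYN rose by 1.15, and the kinases PTK2 and PTK2B changed by −0.74 and 0.30, of which the latter did not pass (adjusted p = 0.251).

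The non-clustered delta protocadherins, single genes with promoters of their own, were the comparison outside the clusters. Of 10 tested, 8 were higher and 1 lower, beside 39.8% and 36.8% of all genes. Their median was 2.18, and that of the clustered members 2.28 in the deposited counts, which hold shared reads. By own reads with the usual filter the clustered median was 2.58, with 2.29 in alpha, 3.65 in beta and 1.30 in gamma. That filter kept 41 members, 14 of them gamma. It left out PCDHGA4, PCDHGB3 and PCDHGA7, which were lower with every member kept. Of the 41, 9 passed it only through day 30, as did 0 of the 10 delta genes. The clustered and delta medians thus rest on unlike selections. PCDH9 had the largest rise, from 2.02 ± 0.981 to 733 ± 38.9 CPM (8.50 ± 0.26), and PCDH18 was the 1 that fell (−1.33 ± 0.11). PCDH1, which lies near the clusters and is also in the list of neighbours, did not pass (0.13 ± 0.15). The difference between the clustered and the delta genes was not tested.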

How the data were processed

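The deposited values are expected counts per gene (read counts that can hold fractions of reads), as read from the values, in 1 table of 6 libraries. The submitters' processing notes list FastQC 0.11.9 and build hg38. Libraries were a stranded, ribosomal RNA-depleted TruSeq kind, per the labels' protocols. The sources used here do not give the aligner, counting program, annotation or strand setting. Positions, types and exon lengths came from GENCODE release 29, which matched 94.3% of entries.

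Counts were rounded and fitted on the whole table in R 4.3.3 with edgeR 4.0.16 (quasi-likelihood, TMM, filterByExpr, 2-sided, Benjamini-Hochberg over all genes tested, threshold 0.05). The fit was tested on simulated data with log2 changes of 2 up or down. It recovered 97.3% of the changed genes, and 6.2% of its calls were false, above the threshold of 0.05. Far fewer genes were changed in the simulation than were called in these data. The biological coefficient of variation was 0.153. Standard errors are approximate: the log2 change divided by the square root of F. Library totals ran from 5013643 to 12924842 counts, which limits the precision of low genes. CPM use TMM-scaled library sizes, and means carry the SD of 3 libraries. DESeq2 1.42.0, limma 3.58.1 and other filters, scalings, a replicate block, reads above the lowest member and left-out libraries were alternatives. Genes named by rule were the C-type genes, in each array the 3 largest rises and falls, the highest member of each day and the member nearest to 0 that did not pass, and in each list the largest rise and fall. Other genes were chosen after their values were seen. The members and lists were chosen with earlier results of these data known.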

Additional observations from a re-analysis of the deposited data

How the results depend on the processing

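The 52 members called higher in the deposited counts numbered 52 under total-count scaling, DESeq2, limma-voom and no filter, and 45 of 45 tested under a filter of 50 counts in 3 libraries. Leaving out each library in turn gave 52 to 52 higher and 0 to 0 lower. The labels do not say whether replicate numbers pair the libraries. Same-numbered deviations correlated with r of 0.075, −0.004 and −0.052, and differently numbered ones with −0.134 to 0.137. Such correlations cannot show whether cultures were paired. The replicate block also gave 52 higher and 0 lower. Total-count scaling shifted all log2 changes by a median of 0.09, and put the alpha sum on day 30 at 463 CPM. Own reads, that is reads above the lowest member, gave sums of 79.1 and 282 CPM in alpha and 60.1 and 259 CPM in gamma, and leading-member shares of 21.8% and 18.8% in alpha and 21.0% and 33.2% in gamma (day 0, then day 30). The own-read fit called 38 members higher and 1 lower with the usual filter (37 to 39 and 1 to 2 without single libraries; 2 lower without the third day 0 or the third day 30 library), 42 and 4 with every member kept, and 42 and 5 with no filter. The last 2 fits and the single-library runs of own reads were chosen after seeing the data. Changes that turned from higher to lower were, with every member kept and with no filter, −2.80 and −2.78 for PCDHGA3, −2.11 and −2.09 for PCDHGA4, −0.82 and −0.81 for PCDHGB2, −1.68 and −1.67 for PCDHGA5, −2.40 in both for PCDHGB3, −2.02 in both and with the usual filter for PCDHGA6, and −3.53 and −3.54 for PCDHGA7. They follow from the subtraction of the evenly divided reads. With no filter, PCDHGA5 passed (adjusted p = 0.0239) and PCDHGA9 passed (log2 1.21, adjusted p = 0.00652). Dividing variable reads by unshared exon length, also chosen after seeing the data, put the gamma ratio of constant to variable exons between 0.339 and 0.63 in the stem cells and between 0.994 and 1.15 in the neurons. Members with under 30 own reads a day are limited by depth, and intervals cover counting error only.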

Other observations

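Entries inside the clusters that are neither protein-coding members nor pseudogenes also held reads. ENSG00000272108, a long intergenic RNA at chr5:141118680-141120765 between PCDHB3 and PCDHB4, went from 1.90, 1.30 and 1.35 CPM to 9.63, 8.12 and 14.7 CPM (log2 2.78 ± 0.32, edgeR quasi-likelihood, adjusted p = 1.55e-05). ENSG00000280336, between PCDHB6 and PCDHB7, had 1 read on day 0 and 54 on day 30. ENSG00000279726, annotated antisense to the start of the alpha array, had 38 reads on day 0 and 186 on day 30 (1.93 ± 0.34, adjusted p = 0.000393). ENSG00000278915, antisense at PCDHA12, had 51.5 and 45.5 reads and a log2 change of −0.46 ± 0.33 that did not pass (adjusted p = 0.227). The sources used here do not say whether the counting used strand, and without strand the reads of an antisense entry and of the gene it overlaps cannot be told apart.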
